A study of Mus musculus with 23 samples.

Results

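Chemokine ligands are small secreted proteins that draw leukocytes and glia along concentration gradients through receptors on those cells. The 10 ligand genes described here were taken by gene name from 54232 genes counted in mouse hippocampus, with earlier results of these data known. They fall into 3 classes. Cxcl9 and Cxcl10 are the interferon-induced ligands of the receptor Cxcr3. Ccl2, Ccl12, Ccl3, Ccl4, Ccl6 and Cxcl16 are ligands made by microglia and other myeloid cells. Ccl5 and Cxcl13 are counted as lymphoid ligands, since Ccl5 attracts T cells and Cxcl13 attracts B cells through Cxcr5. All 10 genes were found in every file.

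In healthy brain most inflammatory chemokines are barely transcribed, whereas microglia and astrocytes that respond to injury, virus or protein aggregates switch several of them on. Interferon signalling induces Cxcl9 and Cxcl10, and NF-kB drives much of the transcription of Cxcl10, Ccl2, Ccl3, Ccl4 and Ccl5. Cxcl16 is made as a membrane protein and is released by proteases such as ADAM10.

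The data were poly(A)-selected RNA libraries of C57BL/6 hippocampi in 2 cohorts. At 9 months there were 4 libraries of PS19;Lsd1Δ/+ mice, which carry human tau with the P301S mutation as a transgene and lack 1 allele of Lsd1, 4 of PS19 mice, which carry the transgene with both Lsd1 alleles, 2 of Lsd1Δ/+ mice without the transgene and 4 of wild-type mice (WT). At 11 months every animal had received an adeno-associated virus in the hippocampus, with expression restricted to neurons. There were 3 libraries of PS19 mice given LSD1 virus (PS19_rescue), 3 of PS19 mice given the HA control virus (PS19_HA) and 3 of wild-type mice given the HA virus (WT_HA). LSD1, encoded by Kdm1a, is a histone demethylase, and the tau transgene of PS19 mice is driven by the mouse prion protein (Prnp) promoter. Whether each library is a separate animal is not stated in the labels. The p-values therefore speak of spread among libraries, part of which may be technical.

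Counted reads ran from 15451494 to 24644977 per library, and levels are given in CPM, the reads of a gene scaled to a common library size. Mitochondrially encoded genes held 16.1% to 33.9% of reads in WT replicate 3, PS19 replicate 3 and WT_HA replicate 2, against 2.86% to 6.04% in the other 20. All 14 libraries of the 9-month cohort had a male pattern of sex-linked genes, and each 11-month group had 1 male and 2 female patterns. Prnp read 1180 to 1964 CPM in the 14 carrier libraries and 433 to 913 CPM in the 9 others. Kdm1a read 1883 to 11084 CPM in PS19_rescue and 63.9 to 66.1 CPM in PS19_HA. At 9 months it read 36.9 to 59.7 CPM in PS19;Lsd1Δ/+, 48.3 to 64.2 CPM in PS19, 35.1 to 36.4 CPM in Lsd1Δ/+ and 39.8 to 59.2 CPM in WT, so the Lsd1-heterozygous carriers overlapped both PS19 and WT. The annotation places Cxcl9, Cxcl10 and Cxcl13 on chromosome 5 and the other 7 ligands on chromosome 11 of GRCm38. From start to end, Cxcl10, Ccl2, Ccl6 and Cxcl16 overlap an annotated gene on the other strand (Art3, Gm17268, E230016K23Rik and Zmynd15). Overlap of exons was not examined, and the strand setting of the counting is not given in the sources used here. Whether reads of that partner affect their counts is therefore not known. Reads shared by related genes such as Ccl2 and Ccl12, Ccl3 and Ccl4, or Ccl6 and Ccl9 are uncertain too.

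Of the 10 ligands, 8 were higher in tau transgene carriers than in non-carriers when both cohorts were fitted together: Cxcl10, Ccl3, Ccl4, Ccl6, Ccl12, Cxcl16, Ccl5 and Cxcl13 (edgeR's quasi-likelihood test, adjusted p under 0.05 over all genes). The same rule called 1.17% of the 20931 genes tested higher. The ligands were chosen with earlier results of these data known, so their share against that of all genes is not an independent test. Of 28 other chemokine ligand genes 13 were tested, and edgeR called 1 higher. The contrast took the carrier minus non-carrier difference within each cohort and averaged the 2 cohorts. Within it the 2 Lsd1Δ/+ libraries weighed as much as the 4 WT libraries. Cxcl9, Ccl4 and Ccl5 had no read in Lsd1Δ/+, so the size of their differences is uncertain. For Cxcl9 the fitted fold was 5.40 and the pooled ratio of carriers to non-carriers was 2.55. Its log2 differences ran from 1.76 for Cxcl16 to 4.92 for Ccl4, with a median of 3.32 over the 10 ligands and of 0.00 over all genes tested. Cxcl10, Ccl3 and Ccl5 were higher in each of the 14 carrier libraries than in any of the 9 others, which 0.134% of genes were. DESeq2, a second tool, called 9, all but Cxcl9, where it called 2.3% of genes higher. Without the 3 libraries of high mitochondrial share edgeR called 6, all of the 8 but Ccl6 and Cxcl13, and DESeq2 called all 10. The share of all genes called without these libraries is not given here. Within single cohorts edgeR called none of the ligands. More RNA per cell and more cells of a type cannot be told apart in whole tissue.

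**Figure D1:**
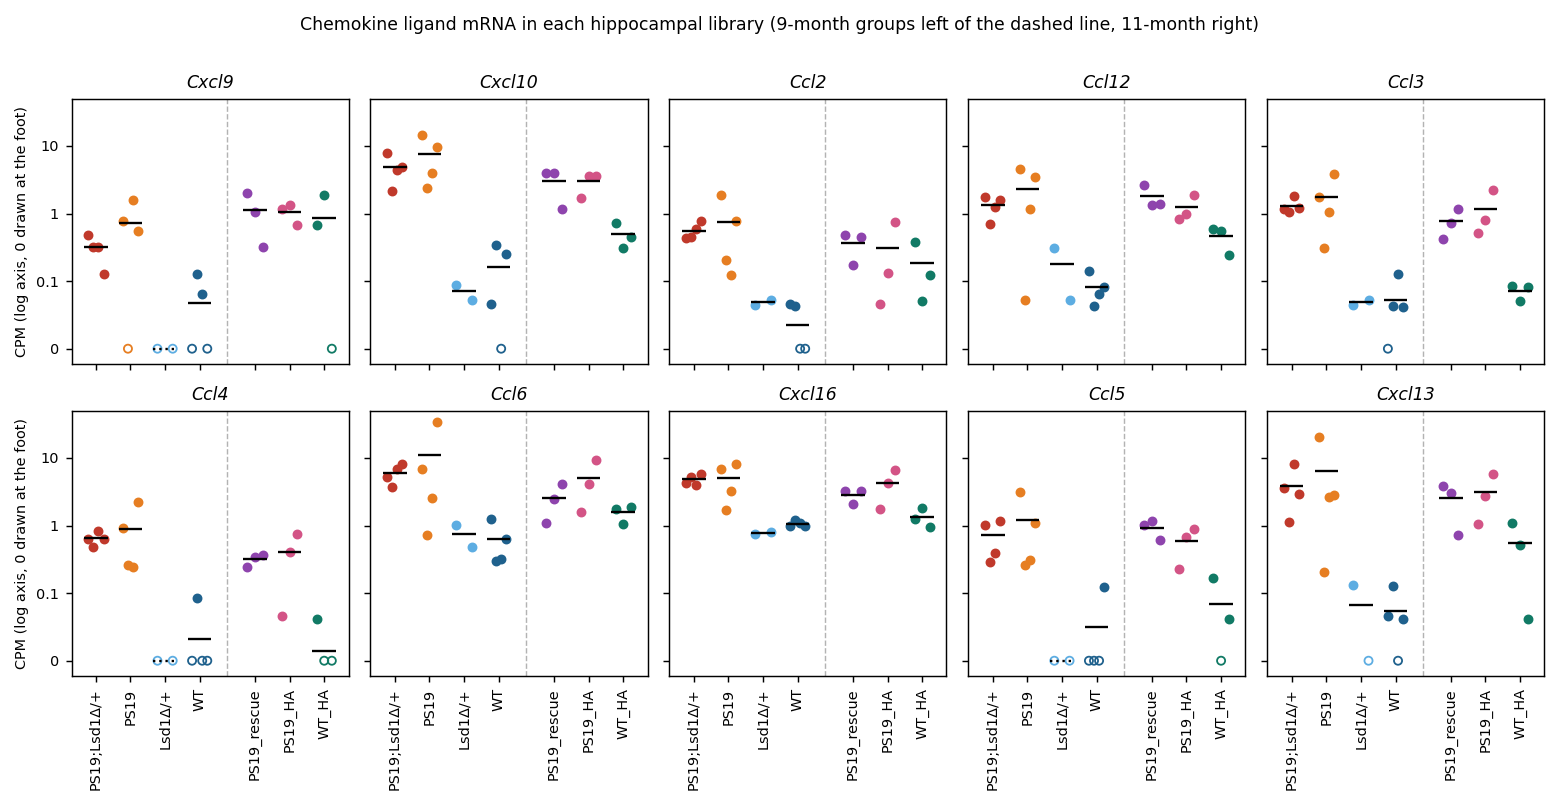
CPM of each chemokine ligand (log axis) in the 23 libraries, with 1 point per library, open points for 0 reads and bars for group means (dotted where every library was at 0). In Cxcl10, Ccl3 and Ccl5 all points of the 4 carrier groups lie above all points of Lsd1Δ/+, WT and WT_HA, and PS19 replicate 2 is the low PS19 point in 8 of the 10 panels.

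Cxcl10 (chr5:92346638-92348889, minus strand) recruits activated T cells and NK cells through Cxcr3. It lay higher in every carrier library than in every non-carrier one. At 9 months its levels were 7.96, 2.15, 4.34 and 4.81 CPM in the PS19;Lsd1Δ/+ libraries and 14.7, 2.38, 3.95 and 9.50 CPM in the PS19 libraries, against 0.0885 and 0.0532 CPM in Lsd1Δ/+ and 0.0466, 0.341, 0 and 0.249 CPM in WT. At 11 months they were 3.92, 4.02 and 1.18 CPM in PS19_rescue and 1.70, 3.65 and 3.59 CPM in PS19_HA, against 0.716, 0.305 and 0.448 CPM in WT_HA. No carrier library came down to the level of a non-carrier one in either cohort. Over both cohorts Cxcl10 was higher by 4.05 on the log2 scale (SE 0.48, edgeR adjusted p = 0.000335), and it kept that call when any 1 of the 23 libraries was left out. In reads, 1374 were counted over the carriers and 52 over the non-carriers.

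The 250 bases before the Cxcl10 and Cxcl9 starts are shown because these 2 genes share a receptor and an inducer. Of the 2, only Cxcl10 kept carriers and non-carriers apart. Whether the matches below bear on the levels of either gene was not tested. They are RefSeq windows on GRCm38.p6, for Cxcl10 chr5:92348890-92349139 and for Cxcl9 chr5:92328080-92328329, both on the minus strand. Capitals mark every match found to the interferon-stimulated response element (ISRE, GAAA and GAAA with NN between them), the NF-kB consensus or the AP-1 site TGANTCA on either strand, and to TATAAA on the gene's strand.
Cxcl10: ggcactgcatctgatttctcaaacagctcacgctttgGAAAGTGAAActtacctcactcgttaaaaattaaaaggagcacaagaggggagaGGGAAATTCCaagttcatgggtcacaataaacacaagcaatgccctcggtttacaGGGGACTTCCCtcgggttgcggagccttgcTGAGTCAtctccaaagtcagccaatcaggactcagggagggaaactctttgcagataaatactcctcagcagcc
Cxcl9: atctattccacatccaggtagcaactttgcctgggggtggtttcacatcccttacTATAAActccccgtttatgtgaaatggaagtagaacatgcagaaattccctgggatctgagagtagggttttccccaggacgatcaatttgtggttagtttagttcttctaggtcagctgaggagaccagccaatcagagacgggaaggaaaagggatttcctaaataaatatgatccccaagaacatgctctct
The Cxcl10 window holds an ISRE match at positions -213 to -204 from the start, NF-kB matches at -159 to -150, -104 to -95 and -103 to -94, of which the last 2 overlap, and an AP-1 match at -74 to -68. An ISRE match is found in 2.98% of 32851 RefSeq windows of this length, an NF-kB match in 7.25% and an AP-1 match in 6.75%. The STAT site TTCNNNGAA (GAS) was also searched for on either strand. It had no match in any window printed here, and 7.02% of all windows hold it. The Cxcl9 window holds TATAAA at -195 to -190 and no other match, and 7.59% of windows hold TATAAA. RefSeq windows were at hand for 6 of the 10 ligands, and those of Ccl3 and Ccl6 hold none of these letters.

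Cxcl9 (chr5:92321347-92328079, minus strand), the other Cxcr3 ligand, had the lowest level per transcript length of the 10 in PS19 and overlapped between groups. It had 10, 8, 5 and 2 reads in the PS19;Lsd1Δ/+ libraries and 16, 0, 26 and 12 reads in the PS19 libraries, against no read in Lsd1Δ/+ and 0, 3, 1 and 0 reads in WT. PS19 replicate 2 had none, and the lowest Lsd1-heterozygous carrier, with 2 reads, was level with WT replicate 2, with 3 reads, at 0.128 CPM each. At 11 months the reads were 33, 24 and 8 in PS19_rescue and 25, 30 and 16 in PS19_HA, against 16, 37 and 0 in WT_HA. The library with the most Cxcl9 reads of the series, 37, was a wild-type one, WT_HA replicate 2. In CPM the highest was a carrier, PS19_rescue replicate 1, at 1.99 CPM against 1.88 CPM in WT_HA replicate 2. The difference over both cohorts was 2.43 on the log2 scale (SE 0.89, edgeR adjusted p = 0.299, DESeq2 0.102), which DESeq2 called with replicate number as a block (2.64, adjusted p = 0.0123) and edgeR did not (2.53, 0.112). The difference of PS19_HA from WT_HA was 0.14 with a 95% interval of -2.19 to 2.47.

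Ccl2 and Ccl12 are nearby genes (chr11:82035571-82037453 and chr11:82101845-82103400, both on the plus strand) whose products attract monocytes through Ccr2. Ccl2 had 9, 11, 9 and 12 reads in PS19;Lsd1Δ/+ and 40, 4, 2 and 17 reads in PS19, against 1 and 1 in Lsd1Δ/+ and 1, 1, 0 and 0 in WT. With 2 reads in WT, the pooled ratio of PS19 to WT was 34.1, with a 95% counting interval of 9.06 to 288. At 11 months it had 8, 4 and 11 reads in PS19_rescue and 1, 3 and 18 in PS19_HA, against 9, 1 and 3 in WT_HA. In Ccl2 both 11-month carrier groups overlapped WT_HA. Over both cohorts Ccl2 missed the threshold (log2 difference 2.34, SE 0.59, edgeR adjusted p = 0.0631). It passed with replicate number as a block (adjusted p = 0.0347), and also when PS19 replicate 2 (0.0299), PS19 replicate 3 (0.0337) or PS19_HA replicate 1 (0.0294) was left out.

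Ccl12 was called where Ccl2 was not. Its levels were 1.76, 0.691, 1.23 and 1.603 CPM in PS19;Lsd1Δ/+ and 4.58, 0.0517, 1.17 and 3.49 CPM in PS19, against 0.310 and 0.0532 CPM in Lsd1Δ/+ and 0.140, 0.0426, 0.0635 and 0.0829 CPM in WT. PS19 replicate 2, with a single Ccl12 read, lay among the WT libraries, and the other 7 carriers lay above all WT libraries. At 11 months the levels were 2.65, 1.34 and 1.38 CPM in PS19_rescue and 0.829, 0.979 and 1.90 CPM in PS19_HA, against 0.590, 0.560 and 0.244 CPM in WT_HA, with no overlap with WT_HA. Over both cohorts Ccl12 was higher by 2.59 (log2, SE 0.51, edgeR adjusted p = 0.0133). That call was lost without Lsd1Δ/+ replicate 2 (adjusted p = 0.0636) and without WT_HA replicate 1, 2 or 3 (0.0620, 0.0626 and 0.0795).

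Ccl3 (chr11:83647844-83649355, minus strand) and Ccl4 (chr11:83662584-83664683, plus strand) are the macrophage inflammatory proteins, which attract monocytes and macrophages, and Ccl3 signals through Ccr1. Ccl3 was near the floor in every non-carrier library and above it in every carrier library. It had 24, 26, 28 and 19 reads in PS19;Lsd1Δ/+ and 37, 6, 17 and 84 reads in PS19, against 1 and 1 in Lsd1Δ/+ and 0, 1, 2 and 1 in WT. At 11 months it had 7, 17 and 29 reads in PS19_rescue and 11, 18 and 53 reads in PS19_HA, against 2, 1 and 2 in WT_HA. The lowest carrier library, PS19 replicate 2, read 0.310 CPM and the highest non-carrier one, WT replicate 3, read 0.127 CPM. Over both cohorts Ccl3 was higher by 4.10 (log2, SE 0.53, edgeR adjusted p = 0.000896), also without any 1 library.

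The upstream window of Ccl3, chr11:83649379-83649628 on the minus strand, is printed as that of another ligand that separated the groups. It holds none of the searched letters, and a link between matches and levels was not tested.
Ccl3: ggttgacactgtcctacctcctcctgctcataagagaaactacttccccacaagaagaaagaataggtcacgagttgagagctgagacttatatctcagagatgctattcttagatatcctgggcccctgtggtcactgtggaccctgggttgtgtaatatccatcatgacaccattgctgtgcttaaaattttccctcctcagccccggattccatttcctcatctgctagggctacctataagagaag

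Ccl4 had the fewest reads of the 10 in non-carriers, 3 reads over all 9 of their libraries and 173 over the 14 carriers. Its levels were 0.635, 0.487, 0.841 and 0.641 CPM in PS19;Lsd1Δ/+ and 0.907, 0.259, 0.247 and 2.20 CPM in PS19, against 0 in Lsd1Δ/+ and 0, 0.0851, 0 and 0 CPM in WT. At 11 months they were 0.241, 0.346 and 0.365 CPM in PS19_rescue and 0.0461, 0.400 and 0.761 CPM in PS19_HA, against 0.0421, 0 and 0 CPM in WT_HA. PS19_HA replicate 1, with 1 read, was level with WT_HA replicate 1, also with 1 read, and the other 13 carriers lay above every non-carrier library. Over both cohorts the pooled ratio of carriers to non-carriers was 39.1 with a 95% counting interval of 13.1 to 191, and the fitted difference passed (log2 difference 4.92, SE 0.77, edgeR adjusted p = 0.00465). In the 11-month fit Ccl4 was under the low-count filter, and an exact two-sided permutation test of its CPM gave p = 0.1 for PS19_HA against WT_HA and for PS19_rescue against WT_HA, the smallest that 3 libraries against 3 allow.

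Ccl6, a monocyte attractant of mouse with no human counterpart of that name, and Cxcl16, the ligand of Cxcr6, were the only 2 of the 10 with more than 3 reads in every WT library. They lie at chr11:83587882-83593087 and chr11:70453983-70459984, both on the minus strand. Ccl6 levels were 5.22, 3.78, 6.80 and 8.08 CPM in PS19;Lsd1Δ/+ and 6.92, 0.724, 2.53 and 34.2 CPM in PS19, against 1.02 and 0.479 CPM in Lsd1Δ/+ and 1.26, 0.298, 0.318 and 0.622 CPM in WT. The 745 reads of PS19 replicate 4 were the most of any ligand in any library, and PS19 replicate 2 lay among the WT values. At 11 months Ccl6 read 1.09, 2.51 and 4.14 CPM in PS19_rescue and 1.61, 4.18 and 9.30 CPM in PS19_HA, against 1.77, 1.07 and 1.87 CPM in WT_HA, and both carrier groups overlapped WT_HA.

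The call of Ccl6 over both cohorts sat at the threshold (log2 difference 2.26, SE 0.55, edgeR adjusted p = 0.0498). It held when WT replicate 1, PS19 replicate 2, 3 or 4 or PS19_HA replicate 1 was left out and was lost without any 1 of the other 18 libraries, with an adjusted p of up to 0.206 without WT_HA replicate 2. Without the 3 libraries of high mitochondrial share its adjusted p was 0.138.

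Cxcl16 had the smallest difference of the 8 ligands called. Its levels were 4.20, 5.24, 3.95 and 5.83 CPM in PS19;Lsd1Δ/+ and 6.92, 1.71, 3.21 and 8.17 CPM in PS19, against 0.752 and 0.798 CPM in Lsd1Δ/+ and 0.979, 1.19, 1.08 and 0.995 CPM in WT. Every 9-month carrier library lay above every non-carrier one of that age. At 11 months the levels were 3.26, 2.08 and 3.25 CPM in PS19_rescue and 1.75, 4.23 and 6.72 CPM in PS19_HA, against 1.26, 1.83 and 0.937 CPM in WT_HA, and PS19_HA replicate 1 lay below WT_HA replicate 2. Over both cohorts Cxcl16 was higher by 1.76 (log2, SE 0.29, edgeR adjusted p = 0.0058), also without any 1 library.

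Ccl5 (chr11:83525778-83530518, minus strand), a T-cell attractant that is made by T cells and by interferon-treated glia, had 21, 7, 6 and 18 reads in PS19;Lsd1Δ/+ and 65, 5, 5 and 24 reads in PS19, against none in Lsd1Δ/+ and 0, 0, 0 and 3 in WT. At 11 months it had 17, 27 and 15 reads in PS19_rescue and 5, 15 and 21 in PS19_HA, against 4, 0 and 1 in WT_HA. All 14 carriers lay above all non-carriers, although the lowest of them, PS19_HA replicate 1 at 0.230 CPM, was close to the 0.169 CPM of WT_HA replicate 1. Over both cohorts Ccl5 was higher by 4.49 (log2, SE 0.75, edgeR adjusted p = 0.0064), also without any 1 library.

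Cxcl13 (chr5:95956951-95961068, plus strand), the B-cell follicle chemokine, showed the largest difference of PS19 from WT, with the largest SE (log2 difference 6.53, SE 1.32). Its levels were 3.56, 1.14, 8.03 and 2.88 CPM in PS19;Lsd1Δ/+ and 20.4, 0.207, 2.65 and 2.80 CPM in PS19, against 0.133 and 0 CPM in Lsd1Δ/+ and 0.0466, 0.128, 0 and 0.0415 CPM in WT. All carriers lay above all WT libraries, but PS19 replicate 1 held 428 reads and PS19 replicate 2 held 4. At 11 months the levels were 3.80, 3.03 and 0.730 CPM in PS19_rescue and 1.06, 2.76 and 5.71 CPM in PS19_HA, against 1.10, 0.509 and 0.0407 CPM in WT_HA. Both 11-month carrier groups overlapped WT_HA through WT_HA replicate 1.

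Over both cohorts Cxcl13 was higher by 4.15 (log2, SE 0.80, edgeR adjusted p = 0.0123). That call was lost without Lsd1Δ/+ replicate 2 (adjusted p = 0.0636), WT_HA replicate 2 (0.0736) or WT_HA replicate 3 (0.0718), and without the 3 libraries of high mitochondrial share (0.0589). The window before its start, chr5:95956689-95956938 on the plus strand, is shown as that of the ligand with the largest 9-month difference, and it holds TATAAA at -46 to -41 and no other match.
Cxcl13: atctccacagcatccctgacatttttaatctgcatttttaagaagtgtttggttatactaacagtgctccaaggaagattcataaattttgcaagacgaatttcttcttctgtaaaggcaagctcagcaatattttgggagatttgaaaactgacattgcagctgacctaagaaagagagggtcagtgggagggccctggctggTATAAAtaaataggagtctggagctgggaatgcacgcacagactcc

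The comparison of PS19 with WT asks what the tau transgene does at 9 months. All 10 estimates lay above 0, as 46.5% of estimates did over all genes, with log2 differences from 2.04 for Cxcl16 to 6.53 for Cxcl13 and a median of 4.66, against -0.02 over all 20122 genes tested. The 4 PS19 libraries lay above the 4 WT libraries in 7 of the 10 ligands, as they did in 1.11% of genes, and Cxcl9, Ccl6 and Ccl12 overlapped. edgeR called none of the 10, where it called 0.00497% of genes higher, with Cxcl10 nearest at an adjusted p of 0.0615 (log2 difference 5.34, SE 0.76). All 10 had an unadjusted edgeR p under 0.05, as 3.91% of genes had. DESeq2 called 9 of the 10, all but Cxcl9 (adjusted p = 0.184), where it called 0.929% of genes higher.

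The edgeR count of that comparison turned on PS19 replicate 2. Its 10 ligands summed to 6.10 CPM, against 62.0, 16.8 and 66.6 CPM in PS19 replicates 1, 3 and 4 and 1.65 to 2.52 CPM in WT. It was the lowest PS19 library in 8 of the 10 ligands. Without it edgeR called 8 of the 10, all but Cxcl9 (adjusted p = 0.0726) and Ccl5 (0.0659), and DESeq2 called all 10. Without any other single library edgeR again called none, and DESeq2 called 6 to 9. Over all genes, leaving out 1 of the 8 libraries gave 1 to 146 calls with edgeR and 66 to 338 with DESeq2. Without WT replicate 3 and PS19 replicate 3, the 2 of high mitochondrial share, edgeR called none and DESeq2 called 9. With replicate number as a block edgeR called Cxcl10 (log2 difference 5.07, adjusted p = 0.0343).

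**Figure D2:**
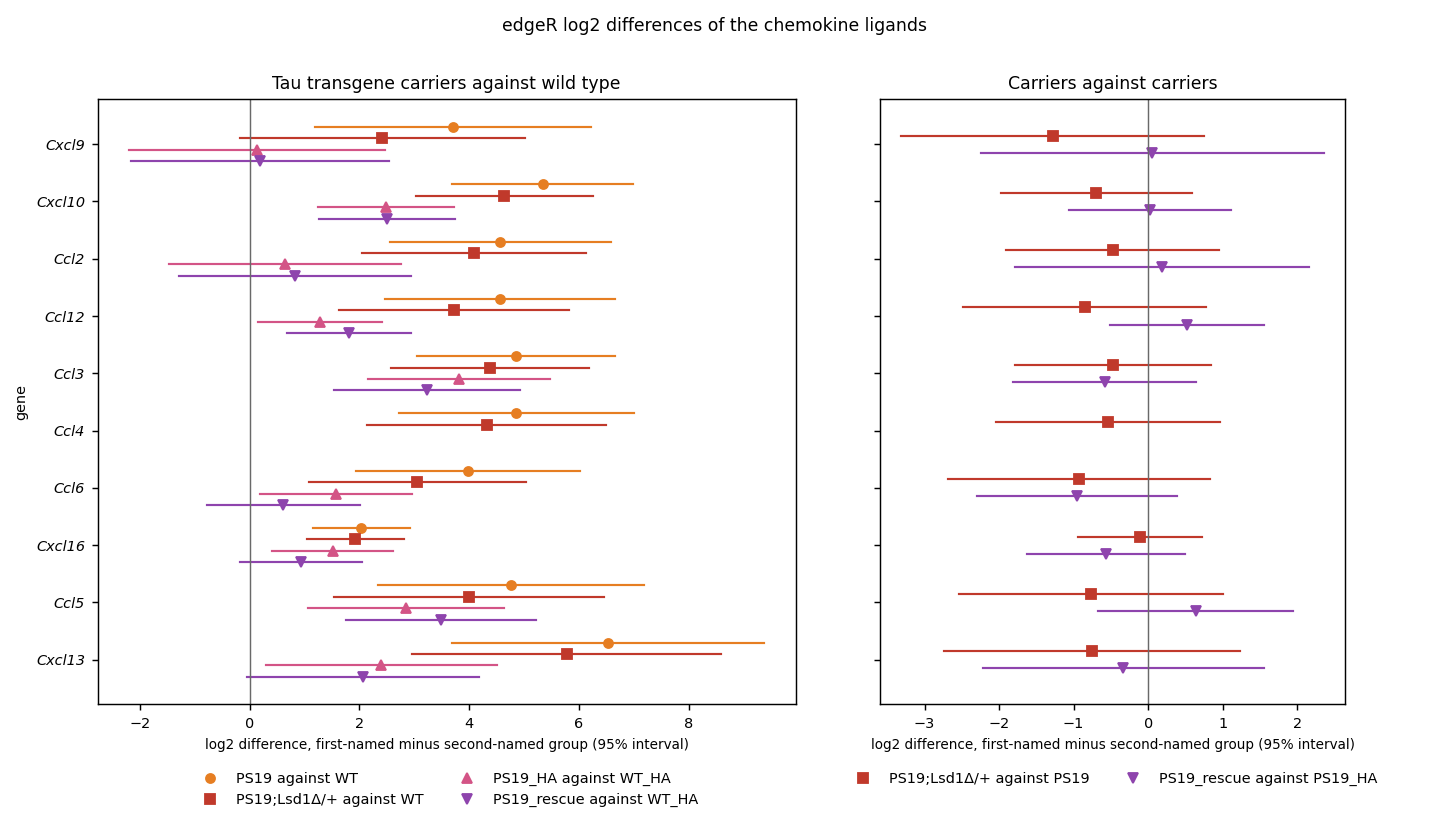
edgeR log2 differences of the ligands with 95% intervals, on the left for the 4 carrier groups against the wild type of their cohort, on the right for carrier groups against each other, and with no point for Ccl4 at 11 months, where it was under the filter. On the left all points lie above 0, Cxcl9 at 11 months nearest to it (0.14 and 0.20), and on the right every interval includes 0.

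The PS19;Lsd1Δ/+ group was set against the same WT libraries, so the 2 comparisons are not independent. All 10 estimates again lay above 0, as 50.1% did over all genes, with log2 differences from 1.92 for Cxcl16 to 5.77 for Cxcl13 and a median of 4.04, against 0.00 over all genes. No ligand overlapped WT, a pattern seen in 5.62% of genes, although Cxcl9 came level with it and overlapped when CPM were scaled by TMM. Of the 10, 9 had an unadjusted edgeR p under 0.05, against 6.31% of genes. edgeR called none, where it called 0.00497% of genes higher, and its lowest adjusted p was 0.120, for Cxcl10 (log2 difference 4.64, SE 0.75). DESeq2 called 7, all but Cxcl9 (adjusted p = 0.675), Ccl2 (0.0596) and Ccl5 (0.0857), where it called 0.527% of genes higher. With replicate number as a block it also called Ccl2 (adjusted p = 0.00747) and Ccl5 (0.00188). It called 4 when WT replicate 3, which has the high mitochondrial share, or replicate 1, 3 or 4 of the Lsd1-heterozygous carriers was left out, and 5 without any 1 of the other 4 libraries of the pair. Both tools' fits drop WT replicate 3 and PS19 replicate 3 when libraries of high mitochondrial share are left out, and DESeq2 then called 4. The 4 libraries of this group were more even than those of PS19, with summed ligand levels of 26.5, 15.6, 28.3 and 27.1 CPM.

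Whether loss of 1 Lsd1 allele alters the ligands on the tau background is asked by setting PS19;Lsd1Δ/+ against PS19. All 10 estimates were below 0, where 47.4% of estimates lay above 0 over all genes. They ran from -0.12 for Cxcl16 to -1.28 for Cxcl9, with a median of -0.72, against -0.02 over all genes. None passed, with edgeR adjusted p of 1 for each, and neither tool called a ligand, where edgeR called 0.0% of genes and DESeq2 called 0.00497% in either direction. None had an unadjusted edgeR p under 0.05, against 1.25% of genes. The intervals were wide: that of Cxcl10 ran from -1.98 to 0.59, that of Cxcl16 from -0.95 to 0.72 and that of Cxcl13 from -2.74 to 1.24. With 1 library left out, the estimates for Cxcl9, Cxcl10 and Ccl12 stayed below 0 with either tool, and those of the other 7 turned above 0 without PS19 replicate 1 or PS19 replicate 4. Without PS19 replicate 1 the estimate for Cxcl13 was 0.95 and that for Ccl2 was 0.49, and without PS19 replicate 4 that for Ccl6 was 0.71.

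In Lsd1Δ/+ mice without tau, ligand reads were scarce, as in WT. The 10 ligands summed to 2.39 and 1.49 CPM in the 2 Lsd1Δ/+ libraries, against 2.52, 2.30, 1.65 and 2.16 CPM in WT. Cxcl9, Ccl2, Ccl3, Ccl4, Ccl5 and Cxcl13 had at most 3 reads in every library of both groups, which is the floor used here, and are given no fold. For the other 4 the log2 differences were -1.23 for Cxcl10, 0.15 for Ccl6, 1.00 for Ccl12 and -0.61 for Cxcl16. Both Cxcl16 values lay below all 4 of WT, as 5.12% of genes did. Neither tool called a ligand (edgeR adjusted p 0.805 to 0.975, none under 0.05 unadjusted, against 1.28% of genes), and edgeR called 0.0% of genes. The interval for Ccl6, from -2.25 to 2.55, leaves changes of several-fold either way undetectable with 2 libraries against 4.

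At 11 months, 9 ligands passed the filter, and all 9 estimates for PS19_HA against WT_HA lay above 0, as 50.5% did over all genes, with log2 differences from 0.14 for Cxcl9 to 3.82 for Ccl3 and a median of 1.57, against 0.00 over all 19290 genes tested. Cxcl10, Ccl3, Ccl12 and Ccl5 did not overlap, 4 of the 9, where 11.7% of genes did not. edgeR called none (lowest adjusted p 0.454), where it called 0.0104% of genes higher, and 7 of the 9 had an unadjusted p under 0.05, against 8.63% of genes. DESeq2 called Cxcl10 (adjusted p = 0.00924) and Ccl3 (0.0123), where it called 0.544% of genes higher. PS19_HA replicate 1 was the lowest of its group in 9 of the 10 ligands and replicate 3 the highest in 8, with sums of 8.93, 19.1 and 32.6 CPM in replicates 1, 2 and 3. Without replicate 1 DESeq2 called 5 ligands, without WT_HA replicate 1 it called 1, and without any 1 of the remaining libraries of the pair it called none, WT_HA replicate 2 of high mitochondrial share included. DESeq2 with replicate number as a block also called Cxcl13 (adjusted p = 0.0328).

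The LSD1 virus was tested against the HA virus in PS19 mice. The 9 ligands of the filter differed by -0.95 for Ccl6 to 0.64 for Ccl5 on the log2 scale, 5 above and 4 below 0 where 48.2% of all estimates lay above, with a median of 0.03, against -0.01 over all genes. Neither tool called a ligand, where edgeR called 0.0% of genes and DESeq2 called 0.0156% in either direction, and none had an unadjusted edgeR p under 0.05, against 1.81% of genes. The interval of Cxcl10 ran from -1.06 to 1.12 and that of Ccl6 from -2.30 to 0.39, which bounds what 3 libraries a group could detect. The 3 PS19_rescue libraries summed to 18.9, 16.4 and 13.6 CPM and lay between the lowest and the highest PS19_HA library.

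Set against WT_HA, PS19_rescue had estimates above 0 for all 9 ligands, as for 50.3% of genes, from 0.20 for Cxcl9 to 3.49 for Ccl5 (log2), with a median of 1.81, against 0.00 over all genes. The WT_HA libraries are those of the comparison with PS19_HA. Cxcl10, Ccl3, Ccl12, Cxcl16 and Ccl5 did not overlap, 5 of the 9, where 9.22% of genes did not. edgeR called none (lowest adjusted p 0.864), where it called 0.0156% of genes higher, and 4 of the 9 had an unadjusted p under 0.05, against 4.01% of genes. DESeq2 called Cxcl10 alone (adjusted p = 0.0231), where it called 0.0829% of genes higher. That call held without WT_HA replicate 1 or PS19_rescue replicate 3 and was lost without any 1 of WT_HA replicates 2 and 3 and PS19_rescue replicates 1 and 2.

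The tau effect at 11 months (PS19_HA against WT_HA) minus that at 9 months (PS19 against WT) was estimated below 0 for each ligand, from -0.54 for Cxcl16 to -4.13 for Cxcl13 (log2), with a median of -2.63, against 0.02 over all genes. None passed (edgeR adjusted p of 1 for each), where both tools called 0.0% of genes. Cxcl9, Cxcl10, Ccl2, Ccl12 and Cxcl13 had an unadjusted edgeR p under 0.05, against 0.569% of genes. Age, virus injection, sex pattern and cohort cannot be told apart in it. A value below 0 can come from the wild types as well as from the carriers. Cxcl9 averaged 1.05 CPM in PS19_HA and 0.729 CPM in PS19, against 0.852 CPM in WT_HA and 0.0478 CPM in WT. The other ligands had lower means in PS19_HA than in PS19. Ccl2 had only 2 reads over the WT libraries. For Ccl4 the sign turned without PS19 replicate 4 (0.26) or WT_HA replicate 1 (1.17).

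The ligands varied together from library to library. Over the 23 libraries the Spearman correlation of their CPM ran from 0.36, between Cxcl9 and Ccl2, to 0.93, with a median of 0.83 over the 45 pairs, as a description of values that share library, depth and group. In the 9-month cohort PS19 replicates 1 and 4 were high in most ligands, but replicate 1 led in Cxcl10, Ccl2, Ccl12, Ccl5 and Cxcl13, replicate 4 led in Ccl3, Ccl4, Ccl6 and Cxcl16, and replicate 3 led in Cxcl9. Summed by class, the 2 interferon-induced ligands read 2.48 to 8.45 CPM in PS19;Lsd1Δ/+, 2.38 to 15.5 CPM in PS19 and 0.0466 to 0.468 CPM in WT. The 6 myeloid ligands read 11.7 to 18.1 CPM in PS19;Lsd1Δ/+, 3.26 to 52.7 CPM in PS19 and 1.59 to 2.42 CPM in WT. The 2 lymphoid ligands read 1.42 to 8.41 CPM in PS19;Lsd1Δ/+, 0.465 to 23.5 CPM in PS19 and 0 to 0.166 CPM in WT. No class of these carrier groups overlapped WT in its sum.

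**Figure D3:**
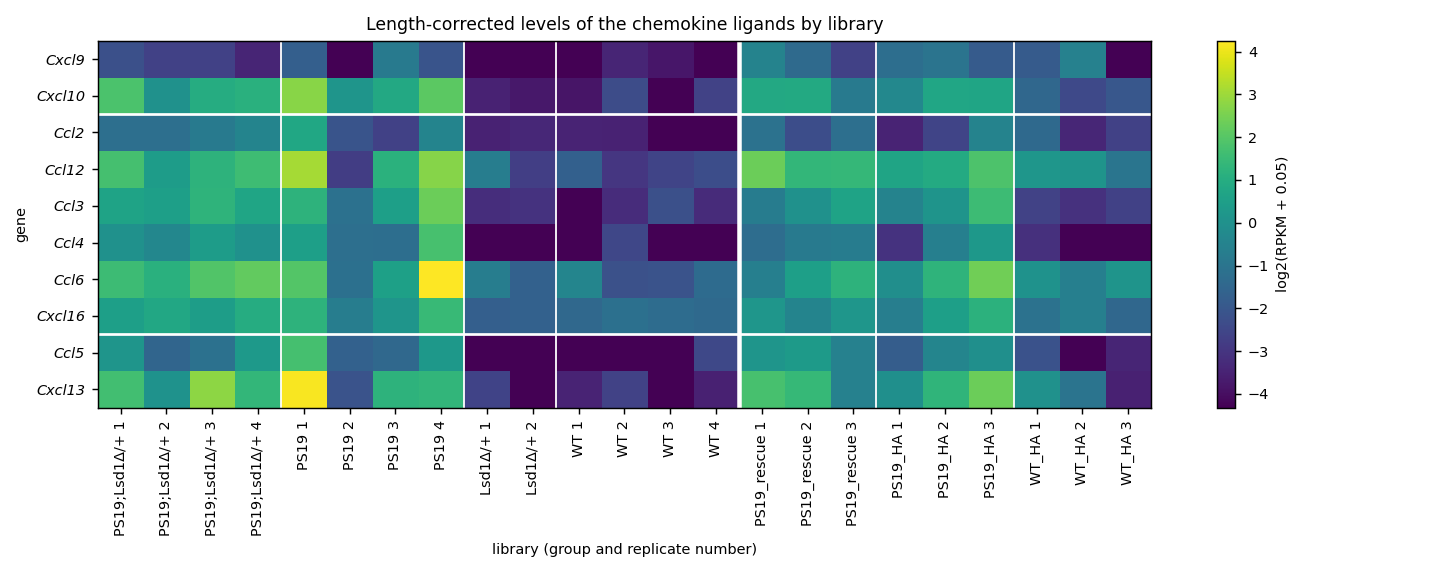
Length-corrected levels of the ligands, as log2(RPKM + 0.05), in the 23 libraries, with white lines between groups and between the interferon-induced, myeloid and lymphoid classes. Cells of non-carriers reach at most 1.10 RPKM, for Ccl12 in WT_HA replicate 1, and the brightest cells are Ccl6 in PS19 replicate 4 and Cxcl13 in PS19 replicate 1.

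Per length of transcript, in RPKM over annotated exons, PS19 hippocampus held Ccl6 (6.18 ± 8.70, SD, n = 4), Cxcl13 (5.67 ± 8.13), Ccl12 (4.33 ± 3.87) and Cxcl10 (3.39 ± 2.49) above the other ligands, and Cxcl9 was last at 0.242 ± 0.221. WT held Cxcl16 (0.351 ± 0.032 RPKM, SD, n = 4) and Ccl6 (0.348 ± 0.250) first, then Ccl12 (0.153 ± 0.078), with Cxcl10 next at 0.0706 ± 0.0720. The order of the first 4 in PS19 rested on single libraries: Ccl6 read 19.0 RPKM in replicate 4 and 0.403 to 3.86 RPKM in the other 3, and Cxcl13 read 17.8 RPKM in replicate 1 and 0.180 to 2.43 RPKM in the other 3. As a mean of each library's own share of the summed ligand RPKM, Ccl6 held 18.5%, Cxcl10 17.0%, Cxcl13 16.95% and Ccl12 13.5% in PS19, so that Cxcl10 stood level with Cxcl13 and above Ccl12. In PS19_rescue the order began with Ccl12, Cxcl13 and Ccl6 at 3.34, 2.19 and 1.44 RPKM, in PS19_HA with Ccl6, Cxcl13 and Ccl12 at 2.80, 2.76 and 2.30 RPKM, and in WT_HA with Ccl6 and Ccl12 at 0.875 and 0.865 RPKM.

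For each ligand the 15597 protein-coding genes past the filter were ranked by Spearman correlation with it over the 23 libraries, and the nearest are named as likeness only. Nearest to Cxcl10 were Mx1, an antiviral GTPase (0.98), and Ifi44 (0.95), both interferon-induced. Nearest to Cxcl9 was Iigp1, an interferon-induced GTPase (0.83), followed by Gm4841 (0.81). Nearest to Ccl5 was Rnf213 (0.97), and to Ccl12 the guanylate-binding protein Gbp2 and the niacin receptor Hcar2 (0.94 each). Ccl3 lay nearest to the complement receptor C3ar1 (0.95) and the Fc receptor Fcgr2b (0.94). Ccl4 lay nearest to Tgm1 and the cystatin Cst7 (0.96 each), Ccl6 to Klhl6 and Ggta1 (0.96 each), and Ccl2 to lipocalin Lcn2 and perforin-2, Mpeg1 (0.89 each). Cxcl16 lay nearest to the oncostatin receptor Osmr (0.96) and Cd22 (0.95), and Cxcl13 to the class I gene H2-Q4 (0.93) and Irgm1 (0.91).

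Of 23 chemokine receptor genes, 14 passed the filter in the fit of carriers against non-carriers. None was called by edgeR, which called 1.17% of all genes higher, and 1 by DESeq2, which called 2.3% higher. That 1 was Cx3cr1, the microglial fractalkine receptor (77.9 ± 31.4 CPM in 14 carriers and 42.5 ± 7.26 CPM in 9 non-carriers, SD, DESeq2 adjusted p = 0.0218, edgeR 0.0995). The estimate for Cxcr6, the receptor of Cxcl16, was 2.26 (log2, edgeR adjusted p = 0.21), that for Ccr1 1.32 (0.385) and that for Ccr2 0.89 (0.706). Cxcr3 and Cxcr5, the receptors of Cxcl9, Cxcl10 and Cxcl13, did not pass the filter, with 9 and 5 reads over the 4 PS19 libraries and 2 and 4 over the 4 WT libraries.

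Of 28 other chemokine ligand genes 13 passed the same filter, and edgeR called 1 higher, where it called 1.17% of all genes higher. It was Cxcl5, a neutrophil attractant (log2 difference 2.37, SE 0.53, adjusted p = 0.0309). DESeq2 also called Ccl9, a relative of Ccl6 on chromosome 11 (log2 difference 1.85, DESeq2 adjusted p = 0.00814, edgeR 0.119). The median over the 13 was 0.42, against 0.00 over all genes. Cx3cl1, the ligand that neurons present to microglia, read 394 ± 185 CPM in PS19 and 403 ± 216 CPM in WT (SD, n = 4 each), and Cxcl12 read 50.4 ± 14.5 CPM in PS19 and 43.6 ± 14.7 CPM in WT.

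Among 28 genes of the pathways that induce chemokines, 25 passed the filter. Of these edgeR called 3 higher in carriers, where it called 1.17% of all genes higher. Among the 3 were the pattern receptor Tlr2 (log2 difference 2.47, adjusted p = 0.00546) and the interferon regulatory factor Irf7 (2.29, 0.00754). DESeq2 called 6 higher, where it called 2.3% of all genes higher, and neither tool called one lower. The median over the 25 was 0.40. The interferon genes themselves were scarcely seen: Ifnb1 had 1 read in PS19_HA and Ifng 1 read in PS19_rescue, and all other groups had none, which allows up to 3 reads a library. Tnf had 16 reads in PS19;Lsd1Δ/+ and 19 in PS19, against 2 in Lsd1Δ/+ and none in WT.

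The 6 microglial markers, Cx3cr1 and P2ry12 among them, summed to 658, 271, 248 and 691 CPM in PS19 replicates 1 to 4, against 242, 235, 169 and 266 CPM in WT replicates 1 to 4, and PS19 replicates 1 and 4 were also those with the most ligand reads. Over both cohorts edgeR called 1 of the 6 markers higher and DESeq2 called 2, where they called 1.17% and 2.3% of all genes higher. The median log2 difference of the 6 was 0.71, the estimate for P2ry12 was -0.07, and no marker was at 0 in any group. The sum was 304 to 539 CPM in PS19;Lsd1Δ/+ and 218 to 234 CPM in Lsd1Δ/+, and at 11 months 287 to 319 CPM in PS19_rescue, 268 to 491 CPM in PS19_HA and 197 to 269 CPM in WT_HA. Against the WT library of the same number the marker sum was higher in 4 of 4 PS19 libraries. That of PS19 replicate 3, which like WT replicate 3 has a high mitochondrial share, lay inside the range of all WT libraries and that of replicate 2 just above it, while their ligands summed to 16.8 and 6.10 CPM and those of WT to 1.65 to 2.52 CPM. The part of the microglial markers in the ligand differences was not tested.

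**Figure D4:**
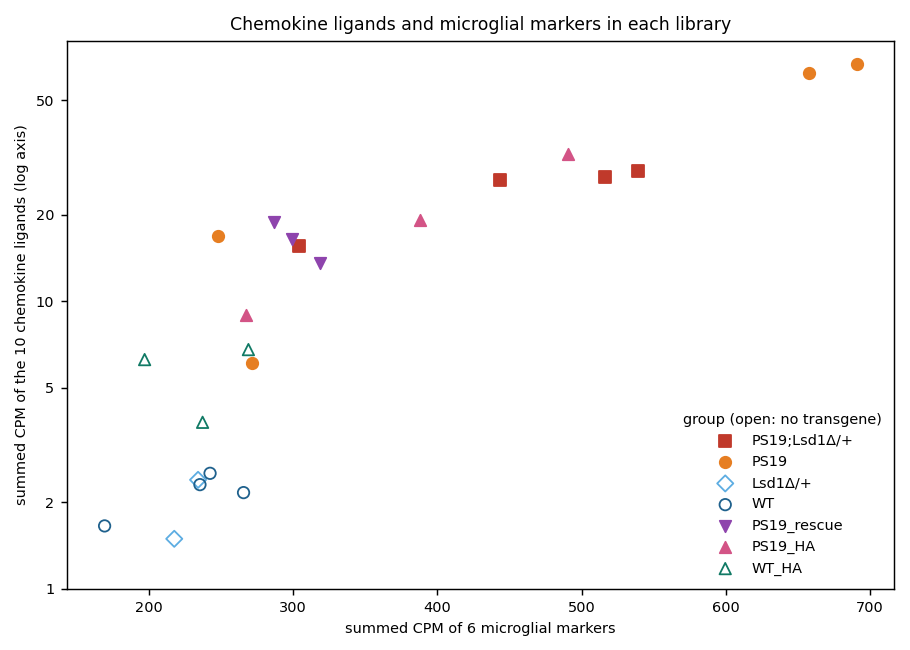
Summed CPM of the 10 ligands (log axis) against the summed CPM of 6 microglial markers, with 1 point per library, filled for tau carriers and open for non-carriers. The non-carriers lie at 1.49 to 6.78 CPM of ligands and 169 to 269 CPM of markers. The carriers lie at 6.10 to 66.6 CPM of ligands and 248 to 691 CPM of markers, so both ranges overlap when the cohorts are pooled. Within each cohort the marker sums overlap and the ligand sums do not. The lowest carriers in ligands are PS19 replicate 2 (6.10 CPM) and PS19_HA replicate 1 (8.93 CPM). The highest non-carriers of the same cohorts are WT replicate 1 (2.52 CPM) and WT_HA replicate 1 (6.78 CPM).

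Other cell markers showed these ranges. The 4 astrocyte markers summed to 2995 to 3805 CPM in PS19;Lsd1Δ/+, 1382 to 4768 CPM in PS19 and 836 to 1267 CPM in WT, and at 11 months to 1326 to 1543 CPM in PS19_rescue, 1402 to 2482 CPM in PS19_HA and 957 to 1185 CPM in WT_HA. Of the 4, edgeR called only Gfap, the intermediate filament of reactive astrocytes, over both cohorts (log2 difference 1.96, adjusted p = 0.00332). It called 1.17% of all genes higher. The median log2 difference of the 4 astrocyte markers was 0.54 over both cohorts. It was 0.63 in PS19;Lsd1Δ/+ and 0.67 in PS19 against WT, so the sums do not stand for each marker. The 6 T-cell markers summed to 1.58 to 3.88 CPM in PS19;Lsd1Δ/+, 0.879 to 1.79 CPM in PS19 and 0.886 to 7.24 CPM in WT, and at 11 months to 1.95 to 5.92 CPM in PS19_rescue, 1.75 to 7.40 CPM in PS19_HA and 1.26 to 4.81 CPM in WT_HA. Over both cohorts 0 of the 5 that passed the filter were called by either tool, with 4 of the 5 estimates above 0 and a median log2 difference of 1.41. At 9 months 2 passed, with medians of -1.47 in PS19 and -0.61 in PS19;Lsd1Δ/+ against WT. At 11 months 3 passed, with medians of 1.03 in PS19_HA and 0.70 in PS19_rescue against WT_HA. Cd3d had no read in Lsd1Δ/+ or WT_HA. The 5 B and plasma cell markers summed to 1.23 to 2.34 CPM in PS19 and 1.14 to 1.68 CPM in WT at 9 months, and to 3.56 to 21.9 CPM in PS19_rescue, 11.2 to 46.0 CPM in PS19_HA and 2.89 to 13.03 CPM in WT_HA at 11 months. The 4 NK markers stayed at 0.0517 to 0.596 CPM in PS19 and 0 to 0.318 CPM in WT, where Klrb1c was at 0, and the 6 monocyte and neutrophil markers at 0.776 to 1.67 CPM in PS19 and 0.511 to 1.49 CPM in WT, with the neutrophil marker Ly6g at 0 in PS19. The 4 choroid plexus markers summed to 39.7 to 3501 CPM in PS19;Lsd1Δ/+, 294 to 2017 CPM in PS19 and 66.3 to 2089 CPM in WT, and at 11 months to 94.8 to 2073 CPM in PS19_rescue, 403 to 3631 CPM in PS19_HA and 39.9 to 958 CPM in WT_HA. Their median log2 difference was 1.304 over both cohorts, 2.49 in PS19_HA against WT_HA and -1.42 in PS19_rescue against PS19_HA, and neither tool called one in these comparisons. The 4 perivascular macrophage markers summed to 4.55 to 23.0 CPM in PS19 and 5.31 to 7.59 CPM in WT, and the 4 endothelial markers to 89.5 to 184 CPM in PS19 and 60.0 to 150 CPM in WT. The 4 hippocampal neuron markers, which check the tissue label, summed to 548 to 676 CPM in PS19;Lsd1Δ/+, below all WT libraries, and to 559 to 1004 CPM in PS19 and 717 to 983 CPM in WT. At 11 months they summed to 449 to 709 CPM in PS19_rescue, 396 to 681 CPM in PS19_HA and 465 to 963 CPM in WT_HA. All 4 estimates lay below 0 over both cohorts (median -0.39, log2) and in PS19;Lsd1Δ/+ against WT (median -0.52), and neither tool called one. Their part in the ligand differences was not tested.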

How the data were processed

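Per the labels, RNA was extracted with Trizol and poly(A) selected. Per the submitters' processing notes, FastQC 0.11.7, Trimmomatic 0.36.5, HISAT2 2.1.0, featureCounts 1.6.0.6 and DESeq2 2.11.40.2 were used on GRCm38. The deposited values are raw read counts per Ensembl gene, made by the authors, 1 file per library. Annotation release, strand setting and treatment of reads with several positions were not given in the sources at hand. Symbols and exons came from an annotation of GRCm38 that matched 54165 of 54232 identifiers, and promoter windows from RefSeq.

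From the counts, edgeR 4.0.16 (R 4.3.3; TMM, quasi-likelihood, robust, filter of 10 counts in enough libraries and 15 in total) fitted each cohort with all its groups, and all 23 libraries for the carrier contrast and the difference between cohorts, with Benjamini-Hochberg adjustment over all genes. DESeq2 1.42.0 was the second tool. Intervals are 95% and ratio intervals cover counting error only. RPKM used summed exon lengths. Replicates differed beyond sampling noise (chi-square per gene of 13.2 or more). Same-numbered libraries deviated together, with every correlation over 0.1, in PS19 against WT (0.498 to 0.821), PS19;Lsd1Δ/+ against WT (0.313 to 0.538) and against PS19 (0.298 to 0.479), PS19_HA against WT_HA (0.113 to 0.299) and PS19_rescue against WT_HA (0.122 to 0.468). A library correlated best with its own number in 4 of 4, 2 of 4, 0 of 4, 3 of 3 and 2 of 3 cases of these 5 comparisons, in that order. This pairing was read from the data, not from the labels, and the fit without the block is the main one. All 10 ligands are named throughout, with receptors and the genes most alike to each, and further genes chosen after their values were seen. Results for some genes are not reported here. Members and gene lists were chosen with earlier results of these data known.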

Additional observations from a re-analysis of the deposited data

Results flagged for a closer look

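Dixon's criterion for a sample far from the others was applied to the CPM of the 10 ligands in the 3 groups of 4 libraries. It marked 3 of the 30 sets. By chance it marks about 5 of every 100 sets of continuous, normally distributed values. Where 3 libraries have no read, as for Ccl4 and Ccl5 below, any read in the remaining library is marked. The count of 3 therefore cannot be set against that rate. Cxcl13 in PS19 replicate 1 read 20.4 CPM, and the other 3 PS19 libraries read 0.207 to 2.80 CPM. Ccl4 in WT replicate 2 read 0.0851 CPM, which is 2 reads, and the other 3 WT libraries had none. Ccl5 in WT replicate 4 read 0.124 CPM, which is 3 reads, and the other 3 WT libraries had none.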

How the results depend on the processing

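The counts of ligands called moved with the tool and with single libraries. For PS19 against WT, 0 with edgeR, they were 9 with DESeq2, 1 with replicate block, 9 with DESeq2 and replicate block, 2 without the filter on low counts, 9 with DESeq2 without the libraries of high mitochondrial share and 2 with a term for replicates 1 and 2 against 3 and 4, and 0 to 10 when 1 library was left out. For PS19;Lsd1Δ/+ against WT, also 0 with edgeR, they were 7 with DESeq2, 9 with DESeq2 and replicate block, 4 with DESeq2 without the libraries of high mitochondrial share, 2 (Ccl12 and Cxcl13) with only the compared groups fitted, and 0 to 5 with 1 library left out. For PS19_HA against WT_HA they were 2 with DESeq2 and 3 with replicate block added, with a leave-one-out range of 0 to 5, and for PS19_rescue against WT_HA 1 and 1, with a range of 0 to 1. For carriers the range was 5 to 9 around 8, with 5 without Lsd1Δ/+ replicate 2, WT_HA replicate 2 or WT_HA replicate 3. The genes called over the whole table for PS19 against WT were 1 with edgeR and 191 with DESeq2, and for carriers 248 and 501, and 713 with edgeR and replicate block. The cause of these differences was not tested. For other alternative fits, apart from the leave-one-out ranges of PS19 against WT, the genes called over the whole table are not given here.

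For carriers, Cxcl10, Ccl3, Ccl4, Cxcl16 and Ccl5 kept their calls under every alternative run, and no ligand changed sign. Ccl6 had an adjusted p of 0.0507 with RLE size factors, 0.0903 without the filter and 0.0535 with the term for replicates, and Ccl2 one of 0.0454 with that term. With replicate block, the block took no call of a ligand away, and for carriers it added Ccl2 with edgeR (2.40, adjusted p = 0.0347) and Cxcl9 with DESeq2 (2.64, adjusted p = 0.0123). Same-numbered libraries did not all deviate together in Lsd1Δ/+ against WT (correlations 0.0276 to 0.0654) or PS19_rescue against PS19_HA (0.073 to 0.241), where the block gave no call.

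Signs turned among small differences. For PS19;Lsd1Δ/+ against PS19, Cxcl13 was 0.0132 with replicate block and Ccl6 0.0076 with DESeq2 and replicate block. With replicates 1 and 2 only, Cxcl9 was 0.0109, Ccl3 0.0428, Ccl6 0.196 and Cxcl16 0.0726. With replicates 3 and 4 only, Ccl2 was 0.454, Ccl5 0.0265 and Cxcl13 0.876. For PS19_rescue against PS19_HA, Cxcl9 was -0.112 and Cxcl10 -0.0838 with replicate block, and -0.219 and -0.082 with DESeq2 and replicate block. With 1 library left out, the ranges in PS19;Lsd1Δ/+ against PS19 were -0.84 to 0.49 for Ccl2, -0.82 to 0.23 for Ccl3, -0.83 to 0.36 for Ccl4, -1.32 to 0.74 for Ccl6, -0.40 to 0.19 for Cxcl16, -1.11 to 0.28 for Ccl5 and -1.41 to 0.95 for Cxcl13. In Lsd1Δ/+ against WT they were -0.44 to 0.68 for Ccl6 and -0.69 to 1.75 for Ccl12. In PS19_HA against WT_HA they were -0.52 to 1.604 for Cxcl9 and -1.13 to 1.70 for Ccl2, and in PS19_rescue against WT_HA -0.57 to 1.70 for Cxcl9. In PS19_rescue against PS19_HA they were -0.64 to 0.55 for Cxcl9, -0.25 to 0.44 for Cxcl10, -0.30 to 2.01 for Ccl2, -0.99 to 0.26 for Ccl3 and -0.76 to 0.41 for Cxcl13. In the difference between cohorts the range for Ccl4 was -3.01 to 1.17. Another scaling of CPM (TMM, or without mitochondrial genes) moved 1 of 70 group means by more than 1 SD.

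Leaving out the libraries of high mitochondrial share, DESeq2 with the block and DESeq2 with 1 library left out were chosen after seeing the data. Ccl3 and Ccl4 had 0 to 2 reads in each non-carrier library, Ccl4 had 1 read in a carrier library, and groups hold 2 to 4 libraries.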

Other observations

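The wild types of the 2 cohorts differ in age, injection and sex pattern and were not tested against each other. Cxcl9 had 16, 37 and 0 reads in WT_HA at 11 months and 0, 3, 1 and 0 reads in WT at 9 months. Cxcl10 had 17, 6 and 11 reads in WT_HA and 1, 8, 0 and 6 reads in WT. Cxcl13 averaged 0.548 ± 0.528 CPM in WT_HA (SD, n = 3) and 0.0540 ± 0.0534 CPM in WT (SD, n = 4). Ccl3 and Ccl4 were at most 0.0843 and 0.0421 CPM in WT_HA and at most 0.127 and 0.0851 CPM in WT.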
